A study of Homo sapiens with 24 samples.

Results

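Bone morphogenetic protein (BMP) signaling was followed through 9 genes, namely the ligand genes BMP2 and BMP4, the pseudoreceptor gene BAMBI, the inhibitory SMAD genes SMAD6 and SMAD7, and the target genes ID1, ID2, ID3 and ID4. They were picked by symbol and are 9 of the 56898 genes of the count tables that have a name in the annotation used. The set was drawn up with the changes of these genes after heat in these same libraries in view. Their levels and fold changes in every comparison of heated with unheated spheroids are therefore a description without a test, and tests of the 9 genes are given only for radiation and for the untreated lines. FaDu and SAS are established human head and neck squamous cell carcinoma lines, and the study grew both as spheroids to ask how hyperthermia changes their response to radiation. RNA was sequenced from 8 conditions with 3 replicates each, 24 libraries in all. The replicates were independent experiments according to the methods, so that p-values measure the spread between experiments. Replicates of the same number went together in most comparisons. The p-values leave this pairing out unless blocks by replicate number are named.

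Control spheroids of either line received neither heat nor radiation. RT spheroids received a single dose of 7 Gy in FaDu and of 10 Gy in SAS. HT spheroids were held at 42.5 °C for 60 min. HT + RT spheroids received this heat exposure and then at once the radiation dose of their line. All spheroids were 4 days old at treatment, and RNA was taken 0.5 h after it. The doses differed between the lines, so a difference between lines under RT or HT + RT cannot be told apart from a difference in dose.

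BMP ligands bind a complex of type I and type II serine/threonine kinase receptors, which phosphorylates SMAD1, SMAD5 and SMAD9. These form complexes with SMAD4 that activate target genes in the nucleus, among which the ID genes are early and widespread responders. ID proteins are helix-loop-helix factors without a DNA-binding region that hold E proteins away from DNA. SMAD6, SMAD7 and BAMBI are themselves induced by the pathway and restrain it.

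Promoters of the members were searched for sites that SMADs or heat-responsive factors are known to bind. The table, from RefSeq on build GRCh38.p14, matched 8 of the 9 members with 12 start sites, and BMP2 was not among them. The 250 bases before the start were searched on both strands for GGCGCC and GTCTAGAC, which are known to bind SMAD complexes, for GAANNTTC and TTCNNGAA, which are paired units of the heat shock element and can overlap each other, and for TGACGTCA, the cyclic AMP response element. All 5 motifs are their own reverse complement. The share of all 35116 promoters with a match in the same window was 16.4% for GGCGCC, 0.182% for GTCTAGAC, 5.78% for GAANNTTC, 6.62% for TTCNNGAA and 1.65% for TGACGTCA. At least 1 match was found for 5 of the 8 members. The 5 windows printed here cover 1 target gene that was lower and 1 that was higher in heated FaDu, both kinds of inhibitor and 1 ligand, and capitals mark the matches. They are chr20:31605039-31605288 for ID1, chr2:8681806-8682055 for ID2, chr15:66701986-66702235 for SMAD6 and chr10:28677271-28677520 for BAMBI on the plus strand, and chr14:53955051-53955300 for the first of 3 starts of BMP4 on the minus strand.
ID1: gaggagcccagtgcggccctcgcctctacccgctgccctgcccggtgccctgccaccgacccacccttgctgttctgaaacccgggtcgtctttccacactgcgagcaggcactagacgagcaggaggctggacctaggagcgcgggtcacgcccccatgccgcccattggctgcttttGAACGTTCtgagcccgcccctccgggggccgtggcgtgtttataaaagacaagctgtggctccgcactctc
ID2: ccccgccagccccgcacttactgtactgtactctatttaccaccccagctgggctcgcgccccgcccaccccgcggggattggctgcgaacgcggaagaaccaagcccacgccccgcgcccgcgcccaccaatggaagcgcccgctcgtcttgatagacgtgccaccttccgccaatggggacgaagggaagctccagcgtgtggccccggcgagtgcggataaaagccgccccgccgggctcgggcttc
SMAD6: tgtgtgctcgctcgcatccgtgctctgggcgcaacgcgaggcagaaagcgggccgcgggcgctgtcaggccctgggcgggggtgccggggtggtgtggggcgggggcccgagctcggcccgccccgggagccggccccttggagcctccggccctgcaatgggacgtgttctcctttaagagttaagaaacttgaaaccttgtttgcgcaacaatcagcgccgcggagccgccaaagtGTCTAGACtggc
BAMBI: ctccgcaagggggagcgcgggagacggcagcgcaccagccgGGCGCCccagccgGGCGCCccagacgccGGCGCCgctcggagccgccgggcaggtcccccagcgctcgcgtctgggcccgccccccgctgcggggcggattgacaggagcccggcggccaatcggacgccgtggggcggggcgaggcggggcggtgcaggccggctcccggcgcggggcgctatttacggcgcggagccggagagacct
BMP4: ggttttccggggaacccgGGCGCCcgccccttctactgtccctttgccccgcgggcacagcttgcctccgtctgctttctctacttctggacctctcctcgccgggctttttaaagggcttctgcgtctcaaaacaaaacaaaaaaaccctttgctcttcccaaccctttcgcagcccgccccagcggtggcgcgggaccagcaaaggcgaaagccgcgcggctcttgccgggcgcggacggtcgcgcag

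ID1 had 1 match to GAANNTTC (GAACGTTC), at position -71 from the start of the gene, and ID2 had none of the 5 motifs in this window. SMAD6 had GTCTAGAC at -12. BAMBI had 3 matches to GGCGCC, at -209, -196 and -181, in a window of 81.2% G and C against a median of 58% over all promoters. BMP4 had GGCGCC at -232 from its first start and TTCTTGAA at -127 from its second, and SMAD7 had TTCAAGAA at -194 from the last of its 3 starts. ID3 and ID4 had no match, and no member had TGACGTCA. A match is a description of letters, and whether a factor binds there was not tested.

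Library totals ran from 15203484 to 29452514 counts with a median of 18378943.5. The lowest and highest totals were 17690374 and 21862472 in FaDu control, 16666024 and 23481395 in FaDu RT, 16794578 and 18188944 in FaDu HT, and 15203484 and 29452514 in FaDu HT + RT. In SAS they were 17797336 and 19645956 in control, 18556387 and 19831372 in RT, 18976390 and 20811396 in HT, and 16123061 and 20981315 in HT + RT. Levels are given as CPM, for which TMM factors made the libraries comparable in size, and genes under 1 CPM rest on few counts at these depths.

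The libraries of FaDu replicate 1 stood apart in all 4 FaDu conditions. The chi-square per gene between replicate 1 and either of the other FaDu replicates was 15.1 to 22.1, against 3.52 to 5.1 between replicates 2 and 3. Between SAS replicates it was 4.61 to 11.8. No pair of libraries was alike within counting noise. Values without the FaDu replicate 1 libraries are given beside those of the members in HT and HT + RT against control and beside others where named, and were added after the data had been seen.

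Both lines expressed the squamous epithelial markers searched for. KRT17, the most abundant of the 8 markers, averaged 4291 CPM in FaDu control and 1482 CPM in SAS control, and none of the 8 was at 0 in any library. The summed level of the list was 9992 to 10606 CPM in FaDu control and 11643 to 12254 CPM in FaDu HT. In SAS it was 3769 to 4192 CPM in control and 4100 to 4538 CPM in HT. Single markers of the list went both ways. TP63 averaged 247 CPM in FaDu control and 173 CPM in FaDu HT, and 198 and 163 CPM in SAS. CDH1 averaged 160 and 145 CPM in FaDu and 196 and 170 CPM in SAS. DSP was lower in HT in SAS only, at 338 and 318 CPM, and the remaining markers had higher means in HT in both lines. Of the 5 fibroblast markers, COL1A1 alone was abundant, with means of 41.7 CPM in FaDu control, 53.8 CPM in FaDu HT, 1.32 CPM in SAS control and 23.9 CPM in SAS HT. COL1A2, COL3A1, PDGFRA and PDGFRB each averaged under 1 CPM in every condition. The fibroblast sum was 1.43 to 2.46 CPM in SAS control and 17.5 to 32.6 CPM in SAS HT, and 36.1 to 46.7 CPM in FaDu control and 48.4 to 64.1 CPM in FaDu HT. Among the leukocyte markers PTPRC was at 0 in 19 libraries and CD3E in 21, and CD14 was the most abundant, at 5.32 CPM in FaDu control and 8.06 CPM in SAS control. The leukocyte sum was 6.89 to 7.79 CPM in FaDu control and 8.67 to 10.9 CPM in SAS control, and 6.48 to 9.14 CPM and 6.61 to 8.16 CPM in HT. The most abundant of the 3 endothelial markers was CDH5 in both lines, at 4.17 CPM in FaDu control and 14.4 CPM in SAS control. The endothelial sum was 7.61 to 8.73 CPM in FaDu control and 6.38 to 7.05 CPM in FaDu HT, and 10.9 to 20.7 CPM in SAS control and 9.54 to 22.4 CPM in SAS HT. The part of these marker levels in the results was not tested. The paper describes the spheroids as mono-cultures, so fibroblast, endothelial and leukocyte markers were read here from cells of the tumor line itself. In such bulk RNA, a changed share of cells in some state and a changed amount of RNA per cell cannot be told apart.

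Levels of different genes were compared per kb of exon. In FaDu control, ID1 had the highest level of the 9 genes at 146 ± 14.4 CPM per kb (SD, n = 3), followed by BMP2 at 4.94 ± 0.245 and ID3 at 2.47 ± 0.0445 CPM per kb. SMAD7 at 0.428 and BAMBI at 0.358 CPM per kb overlapped, as did BMP4 at 0.123, ID2 at 0.102 and SMAD6 at 0.0928 CPM per kb, while ID4 was lowest at 0.0147 CPM per kb. SAS control also had ID1 on top at 74.5 ± 5.3 CPM per kb, with ID3 next at 25 ± 3.8 CPM per kb. BMP2 at 3.54 and SMAD7 at 2.77 CPM per kb overlapped there, as did ID2 at 0.572 and BMP4 at 0.541, and ID4 at 0.0724 and SMAD6 at 0.046. BAMBI, at 0.00822 CPM per kb, rested on a single count in the 3 SAS control libraries.

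After HT the order was different in both lines. In SAS HT, ID1 at 76.5 ± 2.35 and ID3 at 65.5 ± 12.3 CPM per kb overlapped, and BMP4 came next at 11.8 ± 0.827, ahead of ID2 at 7.65 ± 1.85. In FaDu HT, ID1 still led at 38.3 ± 8.6 CPM per kb, followed as in control by BMP2 at 5.89 ± 0.217 and ID3 at 3.28 ± 0.398. The order differed below these genes. BAMBI at 1.47 ± 0.177 overlapped ID2 at 1.15 ± 0.463, which overlapped SMAD7 at 1.09 ± 0.0212 CPM per kb.

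**Figure D1:**
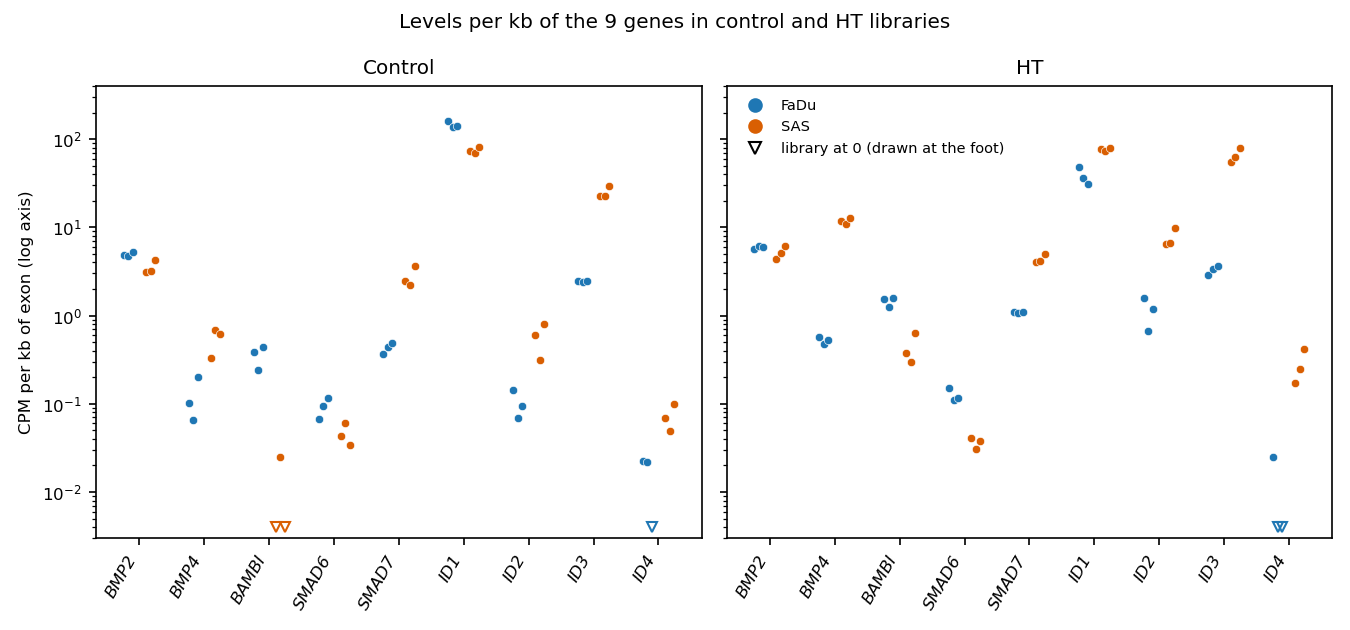
Level of each of the 9 genes in CPM per kb of exon (log axis) in the 3 control libraries (left) and the 3 HT libraries (right) of FaDu (blue) and SAS (orange). Each point is 1 library, and open triangles at the foot mark libraries at 0, so that BAMBI in SAS control has 1 library above 0 while all 3 SAS HT libraries do.

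BMP2 and BMP4 encode closely related ligands of the pathway. BMP4 (ENSG00000125378) was measured at 0.316, 0.204 and 0.617 CPM in the FaDu control libraries and at 1.75, 1.46 and 1.64 CPM in FaDu HT. In SAS control it was at 1.02, 2.11 and 1.88 CPM, and in SAS HT at 36.3, 33.8 and 38.9 CPM. HT + RT libraries held 1.36, 1.12 and 1.33 CPM in FaDu and 32.7, 37.1 and 40.3 CPM in SAS. Every heated library lay above every unheated library of its line, and the SAS heated libraries lay far above all others. The log2 fold change of BMP4 from control to HT was 2.04 (SE 0.39) in FaDu and 4.45 (SE 0.18) in SAS, and to HT + RT it was 1.71 (SE 0.39) and 4.47 (SE 0.19). With replicate 1 left out, the FaDu values were 1.87 (SE 0.48) and 1.54 (SE 0.45). FaDu BMP4 rested on 25 counts in control and 89 in HT, and in HT + RT it was no longer past both thresholds without FaDu control replicate 2, at 1.42, or without FaDu HT + RT replicate 3, at 1.68.

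BMP2 (ENSG00000125845) had much closer levels. The FaDu libraries held 17.5, 17.1 and 18.8 CPM in control and 20.4, 21.9 and 21.3 CPM in HT. SAS libraries held 11.3, 11.6 and 15.4 CPM in control and 15.8, 18.2 and 22.1 CPM in HT. The groups did not overlap in either line, and the lowest SAS HT library was close to the highest SAS control library. For BMP2, which had no promoter in the table, log2 fold changes were 0.27 (SE 0.09) in FaDu HT and 0.47 (SE 0.13) in FaDu HT + RT, and 0.56 (SE 0.16) in SAS HT and 0.82 (SE 0.16) in SAS HT + RT. FaDu without its replicate 1 libraries gave 0.29 (SE 0.10) and 0.57 (SE 0.10).

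BAMBI (ENSG00000095739) encodes a transmembrane protein that resembles a type I receptor but lacks the kinase. In FaDu it was at 0.894, 0.562 and 1.03 CPM in control, at 3.55, 2.93 and 3.69 CPM in HT and at 3.9, 3.47 and 4.17 CPM in HT + RT. In SAS control it had 0, 1 and 0 counts and in SAS RT 0, 0 and 1. SAS HT libraries had 15, 13 and 27 counts of BAMBI and SAS HT + RT libraries 14, 26 and 31. The gene was thus near the limit of detection in unheated SAS and above it in every heated SAS library. In FaDu its log2 fold change was 2.03 (SE 0.27) in HT and 2.23 (SE 0.25) in HT + RT, and 2.04 (SE 0.34) and 2.26 (SE 0.30) without the FaDu replicate 1 libraries. For SAS, the ratio of HT to control was 53.6 with an exact 95% interval of 9.22 to 2154, and that of HT + RT to control was 72 (12.5 to 2884). These intervals cover counting error only.

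SMAD7 (ENSG00000101665) and SMAD6 (ENSG00000137834) encode the inhibitory SMADs, which block receptors and receptor-activated SMADs. SMAD7 was at 1.84, 2.2 and 2.43 CPM in FaDu control, at 5.47, 5.38 and 5.59 CPM in FaDu HT and at 3.84, 8.25 and 7.4 CPM in FaDu HT + RT. In SAS it was at 12.5, 11.1 and 18.2 CPM in control, at 20.6, 20.8 and 25.1 CPM in HT and at 21.7, 23.1 and 24.4 CPM in HT + RT. Heated and control libraries did not overlap in either line, and unheated SAS lay above heated FaDu. The log2 fold change was 1.36 (SE 0.18) in FaDu HT and 1.61 (SE 0.29) in FaDu HT + RT, and 0.68 (SE 0.17) and 0.74 (SE 0.16) in SAS. Leaving out the FaDu replicate 1 libraries gave 1.26 (SE 0.22) and 1.75 (SE 0.19). For HT + RT against RT in FaDu the value was 1.38 (SE 0.28), and it was not past both thresholds without FaDu RT replicate 3, at 1.29, or without FaDu HT + RT replicate 3, at 1.27.

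SMAD6 was low throughout. FaDu libraries held 0.579, 0.817 and 0.987 CPM in control, 1.28, 0.94 and 1 CPM in HT and 1.53, 0.868 and 1.07 CPM in HT + RT, and these groups overlapped. SAS libraries had 7, 9 and 5 counts in control, 3, 4 and 2 in RT, 6, 5 and 6 in HT and 10, 12 and 11 in HT + RT. SMAD6 did not pass the filter on low counts in SAS HT or SAS HT + RT against control. FaDu log2 fold changes were 0.43 (SE 0.32) in HT and 0.54 (SE 0.33) in HT + RT, and 0.12 (SE 0.42) and 0.14 (SE 0.38) without the FaDu replicate 1 libraries. In SAS HT + RT against RT the value was 1.90 (SE 0.47), past both thresholds with edgeR but not with DESeq2, where it was 1.95, nor without SAS RT replicate 3, where it was 1.70. An intronic transcript on the same strand, AC013564.1, had at most 1 count in any condition.

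ID1 (ENSG00000125968), the gene of the set with the most counts, behaved unlike the other members. The FaDu control libraries held 200, 167 and 173 CPM, the FaDu HT libraries 58.9, 44.5 and 38.3 CPM and the FaDu HT + RT libraries 50, 44.1 and 49.5 CPM. In SAS it was at 89.5, 86.9 and 99.3 CPM in control, 95.3, 91.1 and 96.7 CPM in HT and 87.3, 87.9 and 94.4 CPM in HT + RT. All heated FaDu libraries of this gene lay below all unheated FaDu libraries, whereas heated and control SAS libraries overlapped. The log2 fold change of ID1 was -1.91 (SE 0.14) in FaDu HT and -1.88 (SE 0.08) in FaDu HT + RT, against 0.04 (SE 0.07) and -0.03 (SE 0.07) in SAS. Without the FaDu replicate 1 libraries the FaDu values were -2.01 (SE 0.07) and -1.83 (SE 0.06).

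ID2 (ENSG00000115738) went the other way in both lines. FaDu libraries held 0.316, 0.153 and 0.206 CPM in control, 3.49, 1.46 and 2.64 CPM in HT and 2.04, 2.54 and 2.3 CPM in HT + RT. SAS libraries held 1.34, 0.685 and 1.76 CPM in control, 14.3, 14.7 and 21.6 CPM in HT and 16.9, 19.2 and 21.5 CPM in HT + RT. Every heated library was above every unheated library of its line, with unheated FaDu resting on 14 counts in control and 11 in RT. The log2 fold change of ID2 was 3.48 (SE 0.45) in FaDu HT and 3.35 (SE 0.33) in FaDu HT + RT, and 3.74 (SE 0.27) and 3.94 (SE 0.23) in SAS. FaDu without its replicate 1 libraries gave 3.48 (SE 0.53) and 3.70 (SE 0.44). The antisense gene ID2-AS1 overlaps ID2, and the strand used in counting is not given in the sources used here. It had 0 counts in all FaDu conditions, and 2 in SAS control and 22 in SAS HT beside 67 and 924 counts of ID2.

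ID3 (ENSG00000117318) had far lower levels in FaDu than in SAS. It was at 4.47, 4.34 and 4.48 CPM in FaDu control and at 5.13, 6.01 and 6.54 CPM in FaDu HT. In SAS it was at 41.1, 40.8 and 52.8 CPM in control, 97.6, 114 and 141 CPM in HT and 94.8, 112 and 126 CPM in HT + RT. Heated SAS libraries were well above unheated SAS, and the FaDu groups were close but without overlap. The log2 fold change was 0.43 (SE 0.16) in FaDu HT and 0.50 (SE 0.15) in FaDu HT + RT, and 1.40 (SE 0.13) and 1.31 (SE 0.12) in SAS. With replicate 1 left out, the FaDu values were 0.53 (SE 0.18) and 0.57 (SE 0.17).

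ID4 (ENSG00000172201) was nearly undetected in FaDu, with 2 counts in control, 1 in HT and 0 in RT and in HT + RT. SAS libraries had 3, 2 and 4 counts in control, 0, 2 and 4 in RT, 7, 11 and 18 in HT and 11, 8 and 23 in HT + RT. Heated SAS libraries thus had more counts than unheated ones. ID4 passed the filter on low counts only in SAS HT + RT against HT. Its antisense neighbor AL022068.1 had 30 counts in FaDu control and 9 in SAS control, as many as or more than ID4 itself, so ID4 values in unheated libraries are uncertain. In heated SAS it had 3 counts beside 36 of ID4 in HT and 2 beside 42 in HT + RT. With other filters or libraries ID4 was past both thresholds in SAS, as with no filter on low counts, where the log2 fold change was 1.91 in HT and 2.18 in HT + RT against control.

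**Figure D2:**
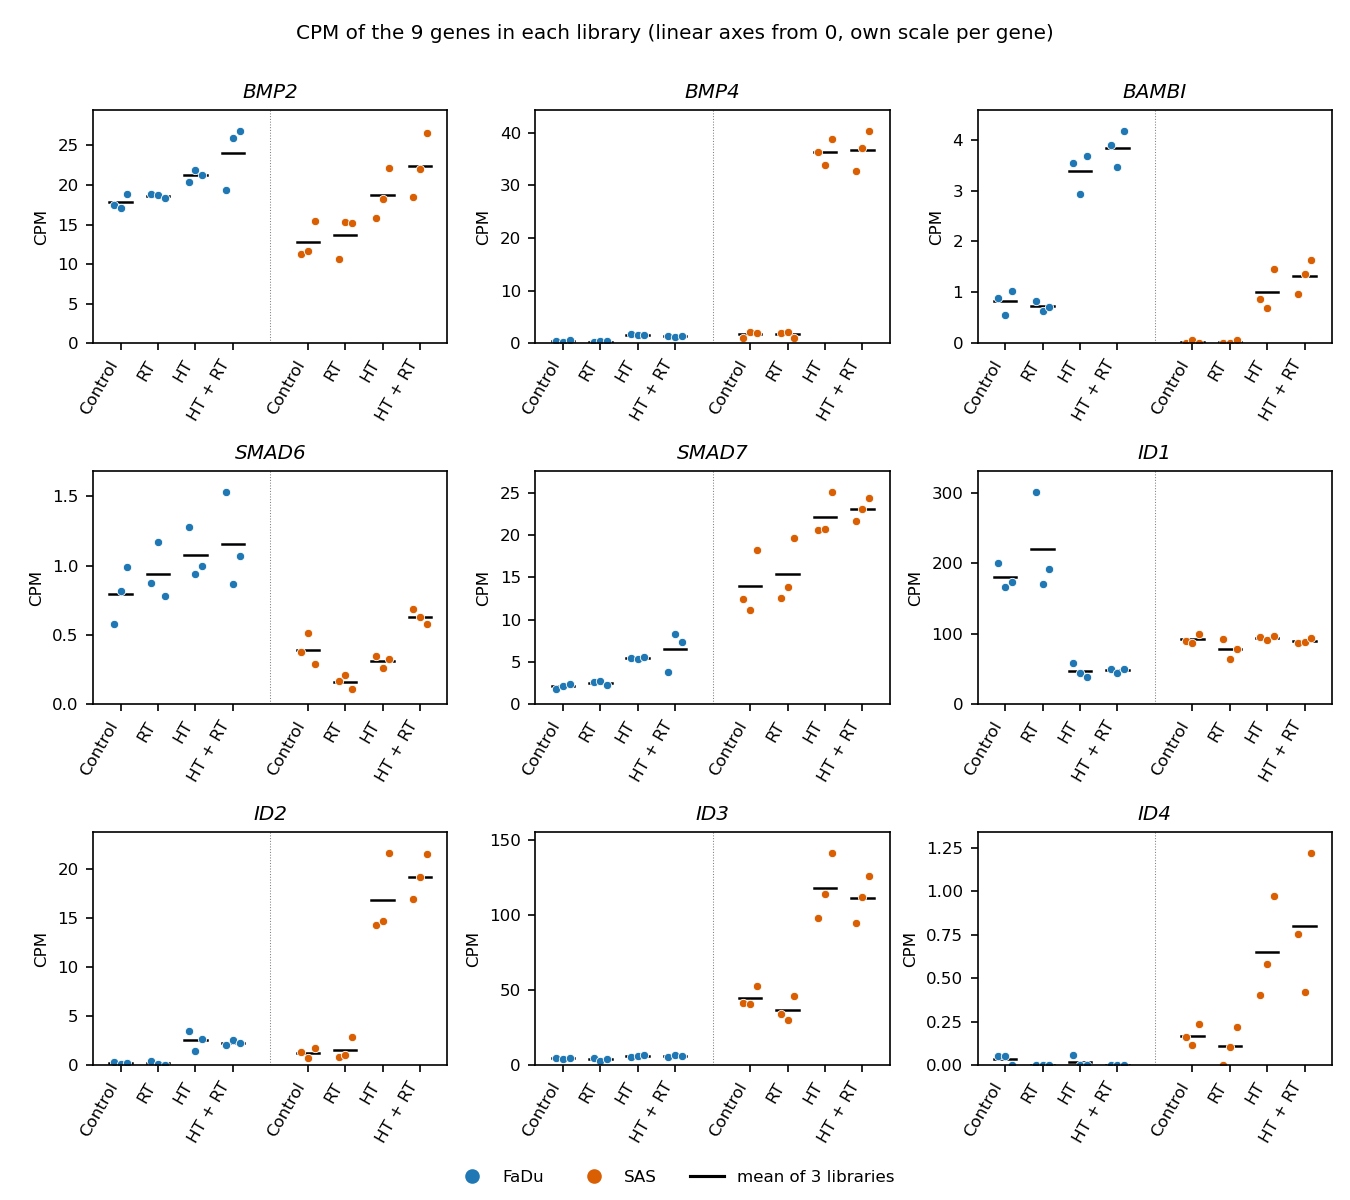
CPM of each gene in each library (points) by line and condition, with the mean of 3 libraries as a black bar, on linear axes from 0 with their own scale. BMP4, ID2 and ID3 are highest in heated SAS, while ID1 in heated FaDu stays at or below 58.9 CPM against at least 167 CPM in unheated FaDu.

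Counted against the thresholds of the study, here with edgeR (a fold change past 1 log2 unit in either direction, adjusted p below 0.05), 5 of the 8 genes that passed the filter in FaDu HT against control were past both, namely ID2, SMAD7, BMP4 and BAMBI upward and ID1 downward. Of all genes tested in that comparison, 4.29% were called higher and 0.674% lower. The same 5 genes were past both in FaDu HT + RT against control, where 5.08% and 0.642% of all genes were called higher and lower. They also were in FaDu HT + RT against RT, with 4.76% and 0.629%. In SAS HT against control, 4 of the 7 genes that passed the filter were past both, all upward (ID2, ID3, BMP4 and BAMBI), where 5.31% of all genes were called higher and 0.713% lower. The same 4 were past both in SAS HT + RT against control, with 5.76% and 0.596%, and with SMAD6 they made 5 of 8 in SAS HT + RT against RT, with 5.71% and 0.893%. Nothing is read from these counts, since the genes were chosen with heat results in view. The comparisons of HT and HT + RT shared the control libraries of their line.

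Of the members that passed the filter, 7 of 8 had no overlap between heated and unheated libraries in each of the 3 FaDu comparisons, beside 36% of all genes tested in HT against control, 36.7% in HT + RT against control and 36.8% in HT + RT against RT. In SAS it was 6 of 7 in HT and 6 of 7 in HT + RT against control, beside 39.6% and 40.2% of all genes, and 7 of 8 in HT + RT against RT, beside 42.2%. Nothing is read from these counts either. The median log2 fold change of the genes that passed the filter was 0.89 in FaDu HT and 1.40 in SAS HT, beside 0.01 and 0.00 over all genes tested. Some members passed the filter only through the heated libraries, where they were higher. In FaDu these were ID2 and BMP4, and in SAS BAMBI and, in HT + RT against RT, SMAD6. They did not pass it in RT against control of their line. Counts and medians of the members therefore lean upward, and nothing is read from the medians either.

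**Figure D3:**
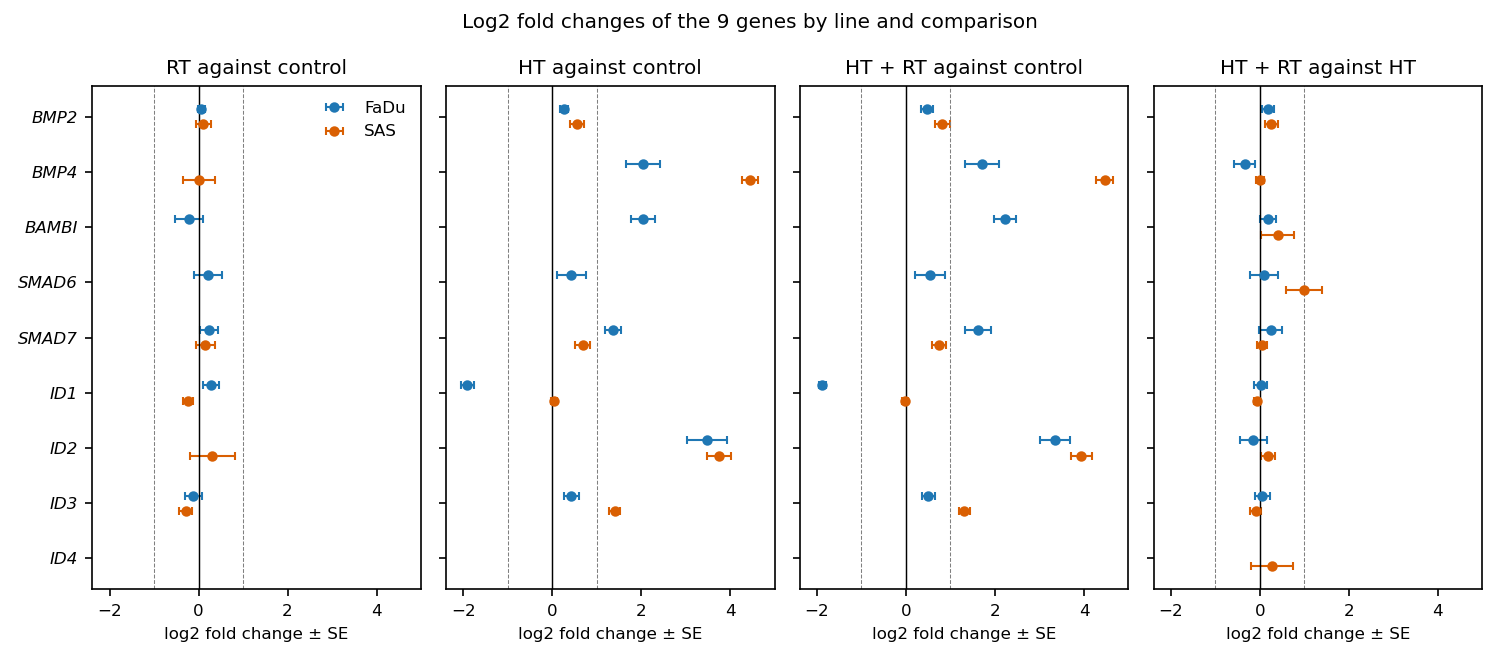
Log2 fold change with its SE for the 9 genes in 4 comparisons of FaDu (blue) and SAS (orange), with dashed lines at -1 and 1. Genes that did not pass the filter on low counts are not drawn, nor is BAMBI in SAS against control, where the control had a single count. Values for RT stay within the dashed lines, as do those for HT + RT against HT apart from SMAD6 in SAS at the upper line, and ID1 alone is past -1, in heated FaDu.

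The difference between lines in the response to heat is likewise a description for these genes. FaDu minus SAS, the log2 fold change in HT differed by -1.93 (SE 0.17) for ID1, -2.40 (SE 0.47) for BMP4, -0.94 (SE 0.23) for ID3 and 0.71 (SE 0.27) for SMAD7. In HT + RT the differences were -1.82 (SE 0.11), -2.74 (SE 0.49), -0.78 (SE 0.20) and 0.91 (SE 0.34). For ID2 they were -0.24 (SE 0.77) and -0.55 (SE 0.54), and for BMP2 -0.26 (SE 0.19) and -0.33 (SE 0.22). Without the FaDu replicate 1 libraries the HT values were -2.03 (SE 0.11) for ID1 and -2.58 (SE 0.55) for BMP4, and the HT + RT values were -1.78 (SE 0.11) and -2.90 (SE 0.58). SMAD7 then stood at 0.61 (SE 0.30) in HT and at 1.06 (SE 0.28) in HT + RT, the latter past both thresholds. BAMBI had the largest differences, -3.26 (SE 0.94) in HT and -3.49 (SE 0.85) in HT + RT, but these rest on a single count in SAS control.

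Radiation alone, by contrast, could be tested. No member was called in either line by edgeR, with 0 of 6 genes that passed the filter in FaDu and 0 of 6 in SAS, 0 at an unadjusted p under 0.05 in either line, and 0 by DESeq2. Over all genes, 0.00643% were called in FaDu RT (1 gene, with 791 at an unadjusted p under 0.05 and 12 called by DESeq2) and 0.0272% in SAS RT (4 genes, with 834 and 10). FaDu RT libraries held 301, 170 and 192 CPM of ID1, overlapping control, and the log2 fold change was 0.29 (SE 0.18) with an adjusted p of 1 by edgeR, higher in 3 of 3 libraries than in the control of the same number. The excess lay mainly in replicate 1, and without the FaDu replicate 1 libraries the value was 0.09 (SE 0.06). Blocked by replicate number, which paired the libraries in this comparison, ID1 in FaDu RT was at 0.25 with an adjusted p of 0.0318 by edgeR, under the fold threshold. In SAS RT, ID1 was at 93.1, 63.8 and 78.7 CPM with a log2 fold change of -0.23 (SE 0.11) and an adjusted p of 0.915 by edgeR, and ID3 was at 33.8, 30.1 and 46.3 CPM with -0.29 (SE 0.15) and 0.919. ID3 was below the control of the same number in 3 of 3 SAS RT libraries, and blocked by replicate number, which paired these libraries too, it was at -0.30 with an adjusted p of 0.0224 by edgeR, under the fold threshold. A small change of ID1 in FaDu and of ID3 in SAS thus depended on the pairing. SMAD6 was the member without overlap in SAS RT, with 3, 4 and 2 counts below 7, 9 and 5, but did not pass the filter on low counts.

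Nor was a member called when radiation was added to heat. In HT + RT against HT, edgeR called 0 of 8 genes in FaDu and 0 of 9 in SAS, and DESeq2 called 0 in either line. At an unadjusted p under 0.05 there were 0 in FaDu and 1 in SAS. Of all genes 0% were called by edgeR in FaDu (361 at an unadjusted p under 0.05 and 2 by DESeq2) and 0% in SAS (673 and 3). The 1 SAS gene was SMAD6, with 6, 5 and 6 counts in HT and 10, 12 and 11 in HT + RT. All 3 SAS HT + RT libraries were above all 3 HT libraries, with a log2 fold change of 1.0 (SE 0.41), an unadjusted p of 0.0331 and an adjusted p of 1 by edgeR. In FaDu, BMP4 was lower in all 3 HT + RT libraries than in all 3 HT libraries, with a log2 fold change of -0.34 (SE 0.24) and an adjusted p of 1 by edgeR. The other members overlapped between HT and HT + RT in both lines.

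No difference between the lines in the response of a member to RT was detected by the interaction test, with 0 of 8 members called by edgeR and 0% of all genes (460 at an unadjusted p under 0.05 and 1 by DESeq2). The lowest unadjusted p of a member was 0.0271 for SMAD6, with a difference of 1.46 (SE 0.59) and an adjusted p of 1 by edgeR.

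The untreated lines differed in most of the members. In FaDu control against SAS control, edgeR called 6 of the 8 genes that passed the filter and DESeq2 called 5, beside 21.2% of all genes called higher in FaDu and 16.9% lower. All 8 members that passed the filter were without overlap between the lines, beside 77.8% of all genes tested. With so many genes called, the count of members says less than their values. Higher in FaDu in 3 of 3 libraries were BAMBI and SMAD6, and higher in SAS were ID2, ID3, SMAD7 and BMP4. When library totals were used without TMM scaling, the median over all genes moved from 0.03 to 0.20, and 63.3% instead of 55.7% of the calls were higher in FaDu.

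ID3 averaged 4.43 ± 0.08 CPM in FaDu control and 44.9 ± 6.84 CPM in SAS control (SD, n = 3), a log2 difference of -3.31 (SE 0.13) with an adjusted p of 3.9e-09 by edgeR. SMAD7 averaged 2.15 ± 0.295 and 13.9 ± 3.81 CPM, with -2.65 (SE 0.22) and an adjusted p of 1.2e-06 by edgeR. ID2 averaged 0.225 ± 0.0829 and 1.26 ± 0.542 CPM, with -2.44 (SE 0.47) and an adjusted p of 0.000711 by edgeR. For BMP4 the difference was -2.03 (SE 0.44) with an adjusted p of 0.00145 by edgeR. These 4 genes were lower in each FaDu library than in each SAS library. FaDu without its replicate 1 library gave -3.31 for ID3, -2.54 for SMAD7, -2.71 for ID2 and -1.90 for BMP4, all still called, as was BAMBI. BAMBI had 53 counts in FaDu control and 1 in SAS control, a ratio of 44.9 (exact 95% interval 7.72 to 1806), and an adjusted p of 9.32e-05 by edgeR.

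ID1, in contrast to ID2 and ID3, was higher in FaDu control, at 180 ± 17.8 CPM against 91.9 ± 6.53 CPM. Its log2 difference of 1.0 (SE 0.08) had an adjusted p of 1.07e-06 by edgeR, but was not over the fold threshold in the fit used here. It was over it with RLE size factors, with library totals and without FaDu control replicate 2 (1.06) or 3 (1.03) or SAS control replicate 3 (1.04). Without FaDu control replicate 1 it was 0.92. BMP2 was higher in FaDu by 0.51 (SE 0.13) with an adjusted p of 0.00491 by edgeR, under the fold threshold. ID4 had 9 counts in SAS control and 2 in FaDu control, a ratio of 5.31 (exact 95% interval 1.1 to 50.5), and was not tested.

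The SMAD6 call was the least firm of the 6. It averaged 0.794 ± 0.205 CPM in FaDu and 0.394 ± 0.111 CPM in SAS, a log2 difference of 1.04 (SE 0.39) with an adjusted p of 0.03 by edgeR. Without FaDu control replicate 1 it was 1.23 (SE 0.43) and still called. It was lost with DESeq2, at 1.05 (adjusted p 0.158). With no filter on low counts it was lost at 1.04 (adjusted p 0.0663 by edgeR). Same-numbered replicates as blocks gave 1.03 (adjusted p 0.0606 by edgeR), although the numbers did not pair these libraries. It was also lost without FaDu control replicate 2 (1.04) or replicate 3 (0.85) and without SAS control replicate 1 (1.0) or replicate 3 (0.87).

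The other genes of the pathway came from 8 lists of 82 genes in all, which were drawn up with earlier results of these data known. SMAD4, the common partner of the receptor-activated SMADs, had 0 counts in all FaDu control, RT and HT + RT libraries and 1 count in FaDu HT. SAS libraries held 51.7 to 56.9 CPM of SMAD4 in control and 52.7 to 55.8 CPM in HT. The level in SAS control was at least 1131-fold higher than in FaDu control, taking 3 counts over the group as the floor. No heat effect on SMAD4 was detectable in SAS, at a log2 fold change of 0.01 (SE 0.07) in HT and 0.00 (SE 0.07) in HT + RT. The heat values of the members in FaDu were thus measured in libraries with next to no SMAD4 counts. This holds for ID1, which was lower, as for ID2, SMAD7, BMP4 and BAMBI, which were higher.

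The list of other BMP target genes is described by counts and medians, from which nothing is read, since earlier results were known when it was made. In FaDu HT, 4 of the 10 that passed the filter were called higher and 0 lower, beside 4.29% of all genes called higher, with a list median of 0.94 beside 0.01 over all genes. FaDu HT + RT had 7 of 11 called higher beside 5.08% of all genes, with a median of 1.17. In SAS HT it was 5 of 9 beside 5.31% with a median of 1.64, and in SAS HT + RT 6 of 9 beside 5.76% with a median of 1.69. Adjusted p-values of single genes run over all genes tested, not over the list. TBX3, a T-box transcription factor, averaged 8.27 ± 0.891 CPM in FaDu control and 32.6 ± 2.42 CPM in FaDu HT, a log2 fold change of 2.0 (SE 0.11) with an adjusted p of 1.42e-05 by edgeR. In SAS it averaged 10.6 ± 3.38 CPM in control and 135 ± 3.85 CPM in HT, with 3.67 (SE 0.15) and an adjusted p of 8.87e-09 by edgeR. GATA2, a zinc finger transcription factor, rose in SAS HT from 27.9 ± 1.86 to 126 ± 8.03 CPM, with 2.17 (SE 0.08) and an adjusted p of 1.67e-09 by edgeR. All HT libraries were above all control libraries for each of these. The homeobox gene DLX2 had 6 counts in FaDu control and 140 in FaDu HT, with 4.65 (SE 0.46) and an adjusted p of 0.000359 by edgeR. When each library had to hold 10 or more counts, DLX2 was no longer tested in FaDu HT or HT + RT.

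Of the remaining target genes, HES1, DLX5 and, in HT + RT, HEY1, MSX1 and MSX2 were called higher in FaDu, and MSX1, DLX3 and, in HT + RT, HEY1 in SAS. Several others stayed just under the fold threshold, without overlap and with an adjusted p under 0.05 by edgeR, namely MSX1 at 0.96, MSX2 at 0.93 and DLX3 at 0.78 in FaDu HT and HES1 at 0.99 in SAS HT. MSX1 was called in FaDu HT without FaDu control replicate 2 (1.16) or FaDu HT replicate 2 (1.07), and MSX2 without FaDu HT replicate 3 (1.0). HEY1 was called in FaDu HT without FaDu HT replicate 2 (1.89), with all groups in 1 fit (1.67) and with no filter on low counts (1.64). HES1 was called in SAS HT without SAS control replicate 3 (1.1) or SAS HT replicate 2 (1.01) or 3 (1.09). DLX5 had 2 counts in SAS control and 17 in SAS HT, a ratio of 8.28 (exact 95% interval 1.97 to 73.9), and did not pass the filter there. HEY1 in FaDu HT + RT had a log2 fold change of 1.68 (SE 0.39) and was not called with DESeq2, without FaDu control replicate 2 (1.71) or 3 (1.56), or without FaDu HT + RT replicate 3 (1.39). MSX1 in FaDu HT + RT, at 1.17 (SE 0.20), was not called without FaDu control replicate 1, where it was 0.98. HEY1 in SAS HT + RT against RT was not called without SAS HT + RT replicate 2, at 1.49. MSX2 had 0 counts in all SAS libraries. The values of MSX1 and HEY1 in HT + RT were known when the list was made. Without the FaDu replicate 1 libraries, TBX3 was at 2.11 (SE 0.11), DLX2 at 4.88 (SE 0.56), HES1 at 1.23 (SE 0.07) and DLX5 at 2.31 (SE 0.40) in FaDu HT. In FaDu HT + RT, HEY1 was then at 1.90 (SE 0.52), MSX1 at 1.01 (SE 0.17) and MSX2 at 1.16 (SE 0.17), all still called.

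**Figure D4:**
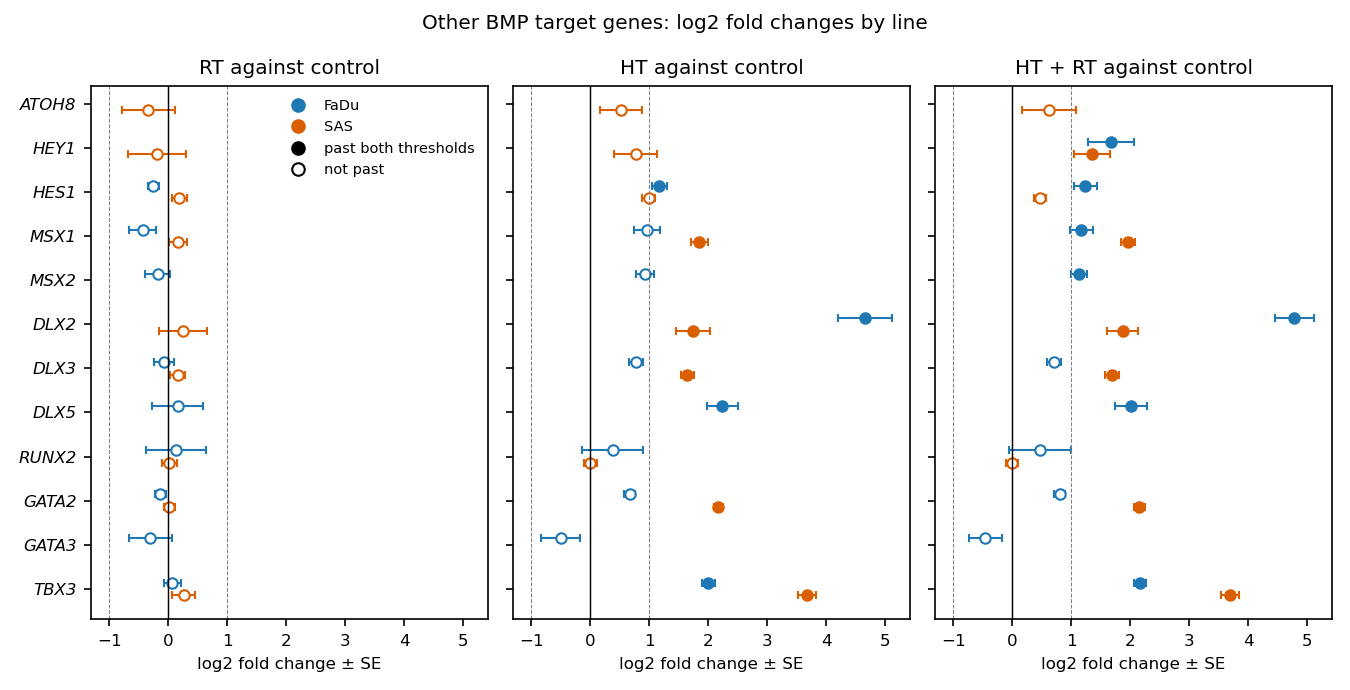
Log2 fold change with its SE for the other BMP target genes that passed the filter, in FaDu (blue) and SAS (orange), with dashed lines at -1 and 1. Filled points are past both thresholds, and TBX3 and DLX2 are filled for both lines in HT and in HT + RT while none is filled in RT.

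Over all 8 lists, the other BMP target genes included, 60 genes passed the filter in FaDu HT, of which 5 were called higher and 1 lower, and in FaDu HT + RT 8 and 1 of 60 were. In SAS HT 6 and 0 of 56 were called higher and lower, and in SAS HT + RT 7 and 0 of 56. Of all genes tested, 4.29% were called higher and 0.674% lower in FaDu HT, and 5.08% and 0.642% in FaDu HT + RT. The shares in SAS were 5.31% and 0.713% in HT and 5.76% and 0.596% in HT + RT. Nothing is read from these counts, since the lists were drawn up with earlier results known. Outside the other BMP target genes, CTGF was the 1 gene called higher in each of these 4 comparisons. The 1 gene called lower, in the FaDu comparisons, was LEMD3, which encodes an inner nuclear membrane protein that binds receptor-activated SMADs, from 50.7 ± 2.8 to 21.1 ± 1.92 CPM in FaDu HT, with -1.25 (SE 0.09) and an adjusted p of 6.45e-05 by edgeR. In HT + RT the value was -1.08 (SE 0.09), and without FaDu HT + RT replicate 3 it was -0.99 and under the fold threshold. LEMD3 was also lower in SAS without overlap, at -0.68 (SE 0.08) in HT and -0.60 (SE 0.08) in HT + RT, with adjusted p-values of 0.000119 and 0.000213 by edgeR, so that only the fold threshold kept it from a call there. With FaDu replicate 1 left out it was at -1.36 (SE 0.09) in FaDu HT and -1.17 (SE 0.09) in FaDu HT + RT. Apart from CTGF, LEMD3 and ACVR2A, every call under heat lay in the list of other BMP target genes. ACVR2A, an activin and BMP receptor gene, was called higher in SAS HT + RT against RT only, and not without SAS RT replicate 1 (1.0) or 2 (0.97) or SAS HT + RT replicate 2 (0.93). No gene was called by edgeR among the ligands other than BMP2 and BMP4, the receptor-activated and common SMADs, the secreted antagonists or the E proteins in HT or HT + RT against control of either line. The antagonist gene NOG, with 6 counts in FaDu control, 30 in FaDu HT and 34 in FaDu HT + RT, did not pass the filter on low counts there. Without every FaDu library of replicate 1 it was called in HT + RT, at 3.25 with an adjusted p of 0.000487 by edgeR. In HT it was called without FaDu control replicate 1 (2.90) or FaDu HT replicate 3 (2.66). With no filter on low counts NOG was called at 2.42 in FaDu HT and 2.28 in FaDu HT + RT. In SAS HT + RT, NOG was at 0.80 (SE 0.36), and was called without SAS control replicate 2 (1.18). The ligand gene GDF7 had 5 counts in SAS control, 29 in SAS HT and 28 in SAS HT + RT. With no filter on low counts it was called in SAS HT at 2.40 (adjusted p 0.0183 by edgeR) and in SAS HT + RT at 2.39 (adjusted p 0.0169 by edgeR).

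CTGF, a target of transforming growth factor beta signaling, was on the list with its value in SAS RT already known, so that value is a description. SAS control averaged 9.28 ± 1.92 CPM and SAS RT 22.6 ± 4.69 CPM, with all RT libraries above all control libraries and a log2 fold change of 1.29 (SE 0.18). It was the 1 gene past both thresholds of 56, beside 0.0272% of all genes. CTGF was no longer past them without SAS control replicate 1 (1.12), SAS control replicate 2 (1.38), SAS RT replicate 2 (1.14) or SAS RT replicate 3 (1.28). In FaDu, edgeR called 0 of 59 listed genes after RT, with 5 at an unadjusted p under 0.05 and 1 by DESeq2. Of all genes tested there edgeR called 0.00643%, with 791 at an unadjusted p under 0.05 and 12 called by DESeq2. FaDu CTGF averaged 1.26 ± 0.652 CPM in control and 3.84 ± 0.415 CPM in RT, without overlap, with 1.56 (SE 0.33) and an adjusted p of 0.343 by edgeR. When same-numbered replicates were blocked, edgeR gave an adjusted p of 0.000245 at 1.56 (SE 0.26), and CTGF was then called, as it was without the FaDu replicate 1 libraries at 1.19 (SE 0.26). In that setting CTGF was at 2.10 (SE 0.24) in FaDu HT and 2.84 (SE 0.19) in FaDu HT + RT. In HT + RT against HT, edgeR and DESeq2 called 0 of 61 listed genes in FaDu and 0 of 59 in SAS, with 5 and 2 at an unadjusted p under 0.05. Over all genes edgeR called 0% in either line, with 361 and 673 at an unadjusted p under 0.05. Blocked by replicate number, which paired these libraries, CTGF in FaDu was at 0.70 with an adjusted p of 0.00178 by edgeR. HES1 in SAS was then at -0.53 with an adjusted p of 5.3e-05 by edgeR, against 0.123 unblocked. Both genes stayed under the fold threshold.

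Between the untreated lines 32 of 62 listed genes differed, 13 higher in FaDu and 19 higher in SAS. Of all genes tested, 21.2% were called higher in FaDu and 16.9% higher in SAS, and nothing is read from the counts of the lists. Beside SMAD4, differences toward SAS included those of TGFBI (-5.70, SE 0.16), DLX2 (-5.04, SE 0.52) and LTBP2 (-4.19, SE 0.16). Toward FaDu they included GDF6 with a ratio of 534 (exact 95% interval 95.4 to 21110), MSX2, BMP3 and CHRDL1, at least 65.2-fold, 34.2-fold and 24.3-fold higher, GATA3 (5.51, SE 0.46), ENG (5.41, SE 0.21) and BMP7 (2.84, SE 0.10). BMP7 is a ligand of the pathway and averaged 66.9 ± 4.67 CPM in FaDu control. Calls of GATA2 and SMURF2, with differences of -1.0 each, were at the fold threshold. GATA2 was lost without FaDu control replicate 1 or 2 (-1.0 each) or 3 (-0.99) or SAS control replicate 1 (-0.96), and SMURF2 without FaDu control replicate 2 (-0.99) or 3 (-0.97) or SAS control replicate 2 (-0.98).

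The interaction test of heat by line was run on the listed genes, with 2.74% of all genes called in HT and 3.4% in HT + RT. It called 3 of 65 listed genes in HT and 4 of 65 in HT + RT. The lists, with MSX1 on them, were drawn up with earlier results of these data known, so nothing is read from these counts. TBX3 and GATA2 rose more in SAS, with differences of -1.63 (SE 0.22, adjusted p 0.000366 by edgeR) and -1.47 (SE 0.11, adjusted p 8.56e-07 by edgeR) in HT, FaDu minus SAS. DLX2 rose more in FaDu, with 2.94 (SE 0.74) and an adjusted p of 0.0305 by edgeR, but rested on few counts in FaDu control. Every HT library of both lines was above its controls for these 3 genes. Without the FaDu replicate 1 libraries MSX1 (-1.09, SE 0.26) and GATA3 (-2.12, SE 0.58) were also called in HT, and DLX3 (-1.02, SE 0.18) in HT + RT.

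Genes whose fold changes were most like those of 2 members were looked up over the 6 comparisons of a treatment with control, among 12165 genes. For ID1 the nearest were BCDIN3D, C17orf97 and SNHG19, with a root mean square difference in log2 fold change of 0.381, 0.422 and 0.45, against a median of 1.11 over all genes. BCDIN3D had -1.45 in FaDu HT and 0.27 in SAS HT. For SMAD7 the nearest were PHLDA2, NRARP and KRT8P12, with 0.077, 0.0958 and 0.0993, against a median of 0.983. KRT8P12 is a pseudogene that may share reads with its parent gene, so its counts are uncertain.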

How the data were processed

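The count per gene and library was made by the authors before deposit, and the tables were used as the authors deposited them. Which aligner, counter, strand and annotation were used is not given in the sources used here. The submitters' processing notes list bcl2fastq, DESeq2 and the build mm9, although the gene identifiers are human Ensembl. Libraries were assigned to conditions from the column names of 7 raw tables, whose 18 repeated columns were identical, and the normalized tables were not used. Names came from GENCODE v29, which matched 56898 genes, and the 602 left without a name held 0.0217% of the counts. The 9 genes and the pathway lists were chosen with earlier results of these data known, and genes were named in the text by their place in those lists, with likeness genes by rank.

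Each comparison was fitted on its own libraries with edgeR 4.0.16 (quasi-likelihood test, TMM factors, filterByExpr with a minimum count of 10, Benjamini-Hochberg adjustment over all genes that passed) in R 4.3.3, with limma 3.58.1. CPM used TMM factors over all 24 libraries. Standard errors are the fold change divided by the root of F. The analysis was tested on simulated data. Alternatives were DESeq2 1.42.0, RLE factors, library totals, other filters, all groups in 1 fit, same-numbered replicates as blocks, and leaving out each library. Correlations of same-numbered replicates were 0.173 to 0.597 in the FaDu comparisons, and all over 0.1 (0.136 to 0.287) in the SAS comparisons other than HT against control (0.0303 to 0.181). They were -0.0334 to 0.097 between the untreated lines, so the numbers paired the libraries in all but these 2 comparisons. The alternative without FaDu replicate 1 was added after seeing the data. The result of 1 listed gene is not reported here.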

Additional observations from a re-analysis of the deposited data

Results flagged for a closer look

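Several listed target genes were past both thresholds in the interaction test by edgeR of heat by line. Their list was drawn up with earlier results of these data known. For DLX2 the log2 fold change in HT was larger in FaDu by 2.94 (SE 0.74, adjusted p 0.0305), and in HT + RT by 2.94 (SE 0.60, adjusted p 0.00636). These values rest on few counts in FaDu control, where DLX2 did not hold 10 counts in each library. GATA2 differed by -1.47 (SE 0.11, adjusted p 8.56e-07) in HT and by -1.32 (SE 0.14, adjusted p 2.03e-05) in HT + RT, FaDu minus SAS. TBX3 differed by -1.63 (SE 0.22, adjusted p 0.000366) and by -1.50 (SE 0.21, adjusted p 0.000393). GATA3 differed in HT + RT by -2.62 (SE 0.70, adjusted p 0.035), but in HT it was not called, at -2.09 (SE 0.79, adjusted p 0.161). It had 8 counts in SAS control and did not pass the filter in SAS HT or HT + RT against control. For SMAD6, FaDu minus SAS, the difference was 0.79 (SE 0.54) in HT and -0.10 (SE 0.50) in HT + RT, which was not tested. Without every FaDu library of replicate 1 the SMAD6 values were 0.48 (SE 0.63) in HT and -0.51 (SE 0.57) in HT + RT.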

How the results depend on the processing

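With 3 libraries per condition and a single time point, small changes could be missed, and genes under 1 CPM rest on few counts. When each library had to hold 10 or more counts of a gene, fewer genes were tested, and the members past both thresholds were 3 instead of 5 in FaDu HT, in FaDu HT + RT and in FaDu HT + RT against RT. In SAS HT + RT against RT they were 3 instead of 5, and between the control lines 3 instead of 6, with 17 instead of 32 listed genes.

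By adjusted p alone, without the fold threshold, the listed genes called were 21 instead of 6 in FaDu HT, 23 instead of 9 in FaDu HT + RT, 16 instead of 6 in SAS HT, 17 instead of 7 in SAS HT + RT and 54 instead of 32 between the control lines. Without a filter on low counts there were 11 instead of 7 in SAS HT + RT, and the cause was not tested.

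In FaDu RT against control, 0 listed genes were called, against 1 with DESeq2, 1 without the filter, 1 with same-numbered replicates as a block for pairing and 1 without every FaDu library of replicate 1, a setting chosen after seeing the data. Leaving out any single library there, such as FaDu control replicate 1, gave 0. In SAS RT the listed genes called ranged from 0 to 1 when 1 library was left out, with 0 without SAS control replicate 1 and 1 without SAS control replicate 3.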
